A study of Rattus norvegicus with 64 samples.

Results

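The genes described here are Hsp90aa1 and Hsp90ab1, which encode the cytosolic Hsp90 chaperones, 6 genes of Hsp90 co-chaperones (Ahsa1, Stip1, Chordc1, Fkbp4, Cdc37 and Ptges3), the co-chaperone gene Bag3 and the small heat-shock protein gene Hspb1. They were chosen by gene symbol, with earlier results of these data known, and they are 10 of the 17366 genes that all files list. Each symbol carried 1 Ensembl identifier and each gene was measured in all 64 rats. The statistics given for these genes are therefore a description of their size against the spread between rats, and not independent evidence.

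Whole blood of single rats was depleted of globin transcripts and its RNA sequenced. All were adult male Sprague-Dawley animals of 85 to 90 days from Charles River. Every rat received 4 injections of saline or D-amphetamine (AMPH) with 2 h between injections, and blood was drawn by cardiac puncture 3 h after the last one. The study asked how circulating blood responds to neurotoxic AMPH, which raises body temperature, and to heat alone. The 5 groups differed in drug and in the temperature of the environment. There were 6 saline rats at 22.5 °C and 5 saline rats at 16 °C, both described as normothermic. There were 16 saline rats at 39 °C, the environmentally induced hyperthermia group, which received no AMPH. There were 22 AMPH rats at 22.5 °C, labelled hyperthermic and given as the neurotoxic condition, and 15 AMPH rats at 16 °C, labelled normothermic and given as the non-neurotoxic condition. No body temperature of single rats was used here, and the hyperthermic label is that of the group.

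Hsp90 is an abundant ATP-dependent chaperone that completes the folding of kinases, steroid hormone receptors and other client proteins. Co-chaperones load clients onto it, pace its ATPase cycle or carry clients over from Hsp70, while small heat-shock proteins hold unfolding proteins without using ATP. Heat and other proteotoxic stress release the transcription factor HSF1, which binds heat-shock elements, inverted repeats of the unit nGAAn, and drives transcription of many of these genes in most cell types.

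Sequences around the annotated starts are shown because most of these genes rose together with heat and with AMPH at 22.5 °C. The table of rat promoters from RefSeq (build GRCr8, not the rn5 build of the count files) held 9 of the 10 genes, each with 250 bases before and 50 bases after the start. They were searched for a pair of units in either order, GAANNTTC or TTCNNGAA, both of which read the same on the other strand, and for runs of 3 units in alternating order with the same spacing, which contain both kinds of pair. A pair was present in 6 of the 9 genes, and 15.9% of 33469 promoters held one. The 2 largest relative responses outside Hsp90aa1 were those of Hspb1 and Bag3, and the 150 bases before their starts are shown with the pairs in capitals, beside the same stretch of Hsp90ab1, in which these letters did not occur. They lie at chr12:26432302-26432451 on the minus strand, chr1:192533310-192533459 on the plus strand and chr9:22930273-22930422 on the plus strand.
Hspb1: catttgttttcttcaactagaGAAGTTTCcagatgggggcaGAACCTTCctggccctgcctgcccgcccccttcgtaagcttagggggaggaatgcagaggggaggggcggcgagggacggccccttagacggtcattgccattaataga
Bag3: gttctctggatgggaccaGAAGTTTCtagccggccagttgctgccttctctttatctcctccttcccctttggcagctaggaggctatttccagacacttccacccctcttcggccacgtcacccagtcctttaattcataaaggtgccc
Hsp90ab1: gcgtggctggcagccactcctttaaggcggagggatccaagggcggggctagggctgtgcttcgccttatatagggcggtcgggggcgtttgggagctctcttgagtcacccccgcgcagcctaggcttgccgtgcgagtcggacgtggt

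Hspb1 carried 2 pairs, which began 129 and 109 bases before the start, and Bag3 carried 1, which began 132 bases before it. Chordc1 was the 1 gene with a run of 3 or more units, which 0.798% of promoters held. Its run of 23 bases lay just after the annotated start, at chr8:23650831-23650853 on the plus strand, and is shown with the single pairs of Stip1, Fkbp4 and Cdc37 for comparison. Those lay 8, 137 and 136 bases before the starts, at chr1:213657655-213657662, chr4:163398048-163398055 and chr8:27967059-27967066, all on the minus strand.
Chordc1: GAACGTTCGGGAAGATTCCTGAA
Stip1: TTCCAGAA
Fkbp4: GAAAGTTC
Cdc37: TTCCAGAA

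Stip1 and Cdc37 shared the same 8 letters. A match is a description of these letters in this window and says nothing of binding.

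**Figure D1:**
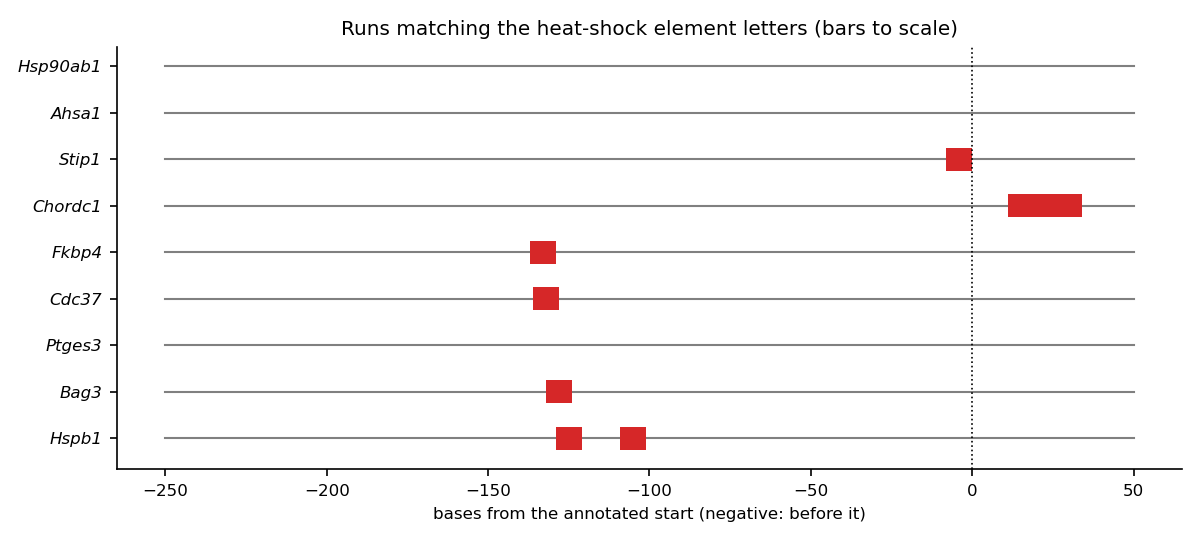
Position of every run that matched the heat-shock element letters in 9 genes, in bases from the annotated start (x axis, negative values before the start), with 1 line per gene and bars drawn to scale. Fkbp4, Cdc37, Bag3 and Hspb1 have matches that begin between 137 and 109 bases before the start, Stip1 has one just before the start and Chordc1 has its run of 23 bases after it.

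Total counts ran from 19055615 to 40530319 per rat. Rats with more than 5000 raw counts of Mb, the myoglobin gene of heart muscle, were left out as a sign of cardiac tissue in the blood draw (saline 22.5 °C replicates 20 and 22, saline 39 °C replicate 12, AMPH 16 °C replicates 2 and 12), which kept 59 rats in groups of 4, 5, 15, 22 and 13 in the order saline 22.5 °C, saline 16 °C, saline 39 °C, AMPH 22.5 °C and AMPH 16 °C. The names of the count files carry a code, called a library set here, whose meaning is not given. The 14 library sets were unevenly spread over the groups, and the saline rats at 22.5 °C and those at 39 °C shared none. The 5 saline rats at 16 °C were all of 1 set. That set held 1 of the 13 AMPH rats at 16 °C and 1 of the 15 heated rats that were kept, and no saline rat at 22.5 °C. Among the AMPH rats at 22.5 °C, replicates 16 and 17 stood apart, with 5040 and 2408 normalized counts of Hsp90aa1 against 23360 to 363300 in the other 20 rats. Replicate 17 also had a summed level of T-cell markers of 19810 normalized counts, against 2658 to 11340 in those 20 rats and 13050 to 19870 in the saline rats at 22.5 °C, and replicate 16 had 10080. Both were kept, and results without them are given where they differ.

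Levels are counts divided by DESeq2's size factors, called normalized counts, and are not compared between genes because gene length is not accounted for. A single fit over the 59 rats, with TMM factors, gave the log2 fold changes. Differences were tested with edgeR's quasi-likelihood test, and Benjamini-Hochberg adjustment ran over 14000 genes. A gene was called when the adjusted p was under 0.05 and the absolute log2 fold change above 0.58. In whole blood, fewer cells of a type and less RNA per cell cannot be told apart.

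**Figure D2:**
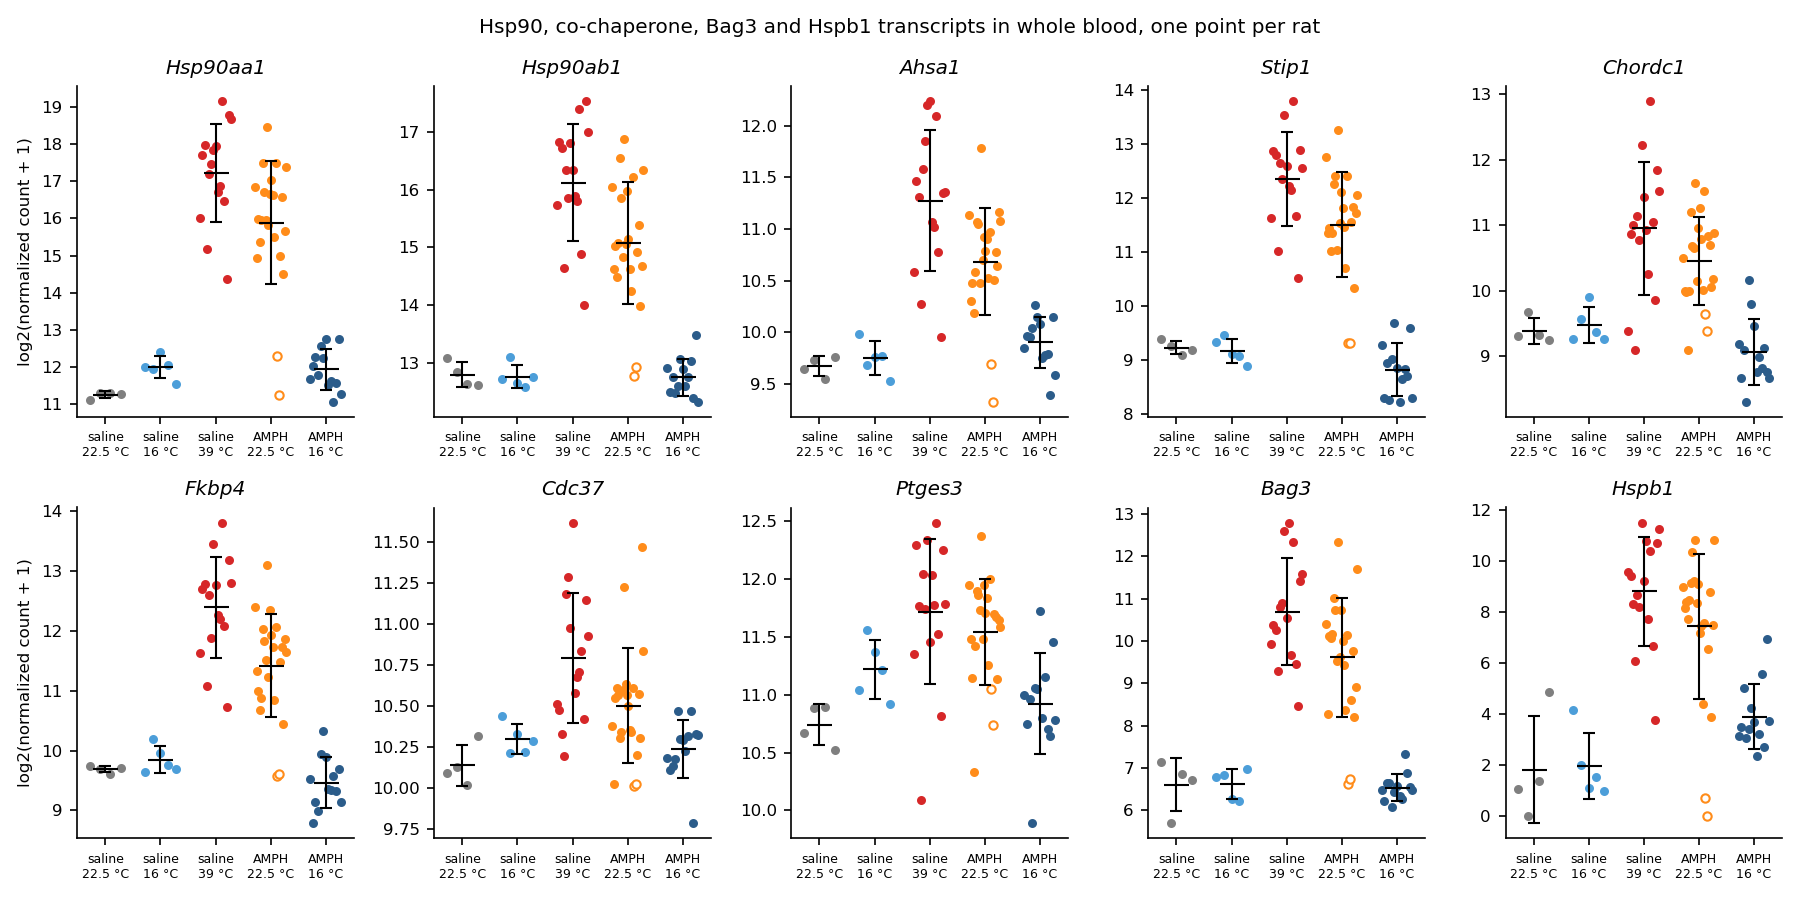
Level of each of the 10 genes in each rat, as log2(normalized count + 1) on the y axis, by group on the x axis. Points are rats, black bars the mean and SD of the log2 values, and open circles AMPH 22.5 °C replicates 16 and 17. The saline rats at 39 °C and the AMPH rats at 22.5 °C form the 2 highest groups in all 10 panels, with wide spreads, and the open circles lie among the lowest of the AMPH rats at 22.5 °C for most genes, at 5040 and 2408 normalized counts of Hsp90aa1.

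Hsp90aa1 (ENSRNOG00000007219), the stress-inducible cytosolic Hsp90, rose most among the Hsp90 and co-chaperone genes and took up to 1.84% of all counts in a single heated rat. The 4 saline rats at 22.5 °C had 2196, 2519, 2499 and 2469 normalized counts, and the 5 saline rats at 16 °C had 4098, 3942, 5350, 4267 and 2986. The saline rats at 39 °C had a lowest value of 21320, a median of 182300 and a highest value of 588900. The AMPH rats at 22.5 °C had 2408, 64020 and 363300 for the same 3 measures, and the AMPH rats at 16 °C had 2127, 3492 and 6901. Every heated rat was above every rat of both saline control groups and of the AMPH 16 °C group, gaps that 1.76%, 1.35% and 0.314% of all genes showed, and 20 of 22 AMPH rats at 22.5 °C were above every AMPH rat at 16 °C, the exceptions being replicates 16 and 17. The saline rats at 16 °C were all above those at 22.5 °C, a separation that 3.75% of all genes showed, between groups that shared no library set. The difference was not called, with a log2 fold change of 0.75 ± 0.72 (SE) and an adjusted p of 0.7091 by edgeR's quasi-likelihood test with Benjamini-Hochberg adjustment. The separation did not hold with saline 22.5 °C replicates 20 and 22, left out for Mb, which had 3696 and 4774. AMPH 16 °C replicate 12, also left out for Mb, had 18000.

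Means were 2421 ± 151 normalized counts in the saline rats at 22.5 °C (SD, n = 4), 213000 ± 163200 in those at 39 °C (n = 15), 93330 ± 80920 in the AMPH rats at 22.5 °C (n = 22) and 4166 ± 1618 in those at 16 °C (n = 13). In heated against 22.5 °C saline rats the log2 fold change was 6.39 ± 0.91 (SE), or 83.6-fold, with an adjusted p of 2.482e-05 by edgeR's quasi-likelihood test with Benjamini-Hochberg adjustment. It was 5.24 ± 0.84 in AMPH rats against saline rats at 22.5 °C and 4.49 ± 0.46 in AMPH rats at 22.5 °C against those at 16 °C. The SD between rats was 76.6% of the mean in the heated group and 86.7% in the AMPH 22.5 °C group, against 6.25% in the saline rats at 22.5 °C. With the rats of high Mb included, the SD of the saline rats at 22.5 °C was 33.2% of the mean. The highest heated rat had 27.6 times the level of the lowest.

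Hsp90ab1 (ENSRNOG00000019834), the constitutive cytosolic Hsp90, was at 8669, 7314, 6387 and 6259 normalized counts in the saline rats at 22.5 °C and at 6775, 8776, 6417, 6164 and 6908 in those at 16 °C. In the heated rats it ranged from 16470 to 189500 with a median of 82780, in the AMPH rats at 22.5 °C from 7028 to 120900 with a median of 33670, and in the AMPH rats at 16 °C from 5137 to 11410 with a median of 6934. The heated rats did not overlap with either saline control group or with the AMPH 16 °C group, while those 3 groups overlapped one another. The log2 fold change was 3.53 ± 0.57 (SE) with heat, 2.57 ± 0.52 with AMPH at 22.5 °C against saline, and 2.62 ± 0.31 between the AMPH groups.

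The 2 Hsp90 genes therefore did not keep a fixed proportion. The ratio of Hsp90aa1 to Hsp90ab1 counts, taken within each rat and so independent of the scaling between rats, had a median of 0.368 in the saline rats at 22.5 °C (range 0.253 to 0.394), 0.605 in those at 16 °C (0.432 to 0.834) and 0.569 in the AMPH rats at 16 °C (0.254 to 0.965). In the heated rats the median was 2.10 (1.201 to 3.44), and in the AMPH rats at 22.5 °C it was 1.90 (0.309 to 4.00). The ratio was above 1 in 15 of 15 heated rats, in 20 of 22 AMPH rats at 22.5 °C and in 0 of 13 AMPH rats at 16 °C. Because gene length is not removed, a ratio of 1 does not mark equal numbers of transcripts, and only the change between rats is read. The 2 AMPH rats below 1 at 22.5 °C were replicates 16 and 17, at 0.717 and 0.309. The AMPH rats at 16 °C that were left out for Mb, replicates 2 and 12, were both above 1, at 1.25 and 1.46.

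**Figure D3:**
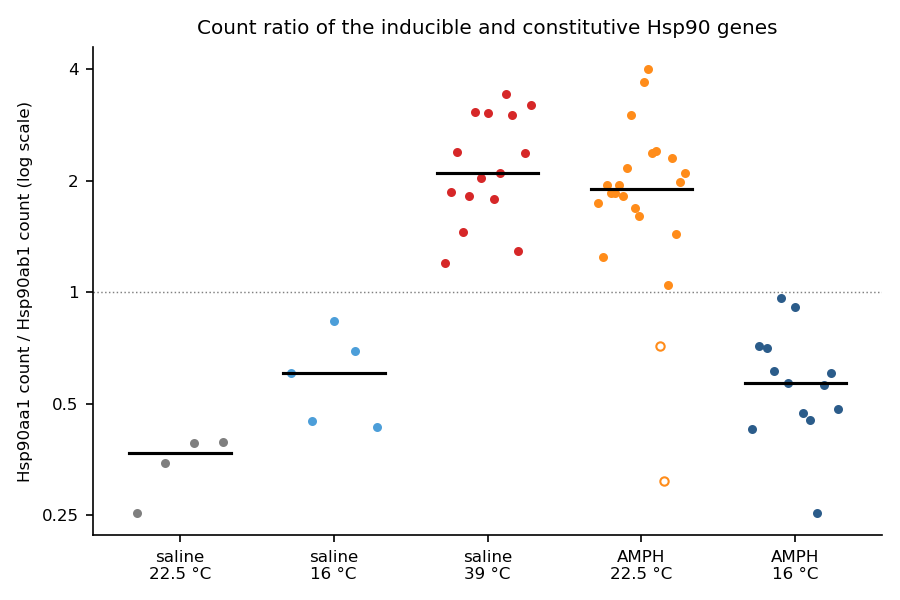
Ratio of Hsp90aa1 to Hsp90ab1 counts in each rat on a log axis, by group, with the group median as a black line and AMPH 22.5 °C replicates 16 and 17 as open circles. All 15 heated rats and 20 of 22 AMPH rats at 22.5 °C lie above 1, and all rats of the other 3 groups lie below it. Rats left out for Mb are not drawn.

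Stip1 (ENSRNOG00000021164), the adaptor that links Hsp70 and Hsp90, and Fkbp4 (ENSRNOG00000006444), the immunophilin that assists steroid receptors, moved almost in step. Stip1 was at 673, 615, 545 and 585 normalized counts in the saline rats at 22.5 °C and at 644, 708.2, 553, 543 and 474 in those at 16 °C. In the heated rats it ran from 1464 to 14220 with a median of 6010, in the AMPH rats at 22.5 °C from 638 to 9748 with a median of 2999, and in the AMPH rats at 16 °C from 300.2 to 831 with a median of 459. The heated rats lay wholly above the other 2 saline groups and the AMPH 16 °C group, as did 20 of 22 AMPH rats at 22.5 °C.

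Fkbp4 was at 857, 822, 783 and 837 normalized counts in the saline rats at 22.5 °C and at 798, 1172, 989, 862 and 826 in those at 16 °C. It ran from 1691 to 14390 in the heated rats (median 6192), from 760 to 8763 in the AMPH rats at 22.5 °C (median 3061) and from 440 to 1284 in the AMPH rats at 16 °C (median 652). The pattern of overlap was that of Stip1. With heat the log2 fold change was 3.26 ± 0.51 (SE) for Stip1 and 2.85 ± 0.46 for Fkbp4. Between the AMPH groups it was 2.87 ± 0.29 for Stip1, with an adjusted p of 1.074e-10 by edgeR's quasi-likelihood test with Benjamini-Hochberg adjustment, and 2.12 ± 0.26 for Fkbp4. Over the 15 heated rats the 2 genes had r = 0.97 (Spearman's rho 0.92, 0.94 without the 2 rats farthest from the median), given as a description of rats that also share library sets and depth.

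Ahsa1 (ENSRNOG00000048981), which stimulates the ATPase of Hsp90, and Chordc1 (ENSRNOG00000026643), a zinc-binding co-chaperone, rose less. Ahsa1 had means of 816 ± 53.2 normalized counts in the saline rats at 22.5 °C, 863 ± 98.5 at 16 °C, 2734 ± 1213 at 39 °C, 1741 ± 594 with AMPH at 22.5 °C and 969 ± 159 with AMPH at 16 °C. The heated rats ran from 992 to 4834 and were all above the saline rats at 22.5 °C, while 14 of 15 were above every AMPH rat at 16 °C. Its log2 fold change was 1.66 ± 0.29 (SE) with heat, 1.06 ± 0.27 with AMPH against saline at 22.5 °C and 0.85 ± 0.16 between the AMPH groups.

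Chordc1 had means of 675 ± 95.9, 723 ± 145, 2480 ± 1816, 1558 ± 713 and 570 ± 231 normalized counts in the same order of groups. Its groups overlapped more, since the heated rats began at 550 and only 13 of 22 AMPH rats at 22.5 °C were above every AMPH rat at 16 °C. The highest heated rat, replicate 11, had 7626. Chordc1 rose 3.48-fold with heat. Its log2 fold change was 1.18 ± 0.41 (SE) with AMPH against saline at 22.5 °C and 1.46 ± 0.25 between the AMPH groups.

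Ptges3 (ENSRNOG00000002642), the p23 co-chaperone that holds Hsp90 in its client-bound state, and Cdc37 (ENSRNOG00000033426), which recruits kinases, changed least. Ptges3 had means of 1722 ± 210 normalized counts in the saline rats at 22.5 °C, 2412 ± 427 at 16 °C, 3622 ± 1279 at 39 °C, 3115 ± 897 with AMPH at 22.5 °C and 2017 ± 595 with AMPH at 16 °C. All 5 saline rats at 16 °C (1933 to 3008) were above the 4 kept at 22.5 °C (1468 to 1898). This was so for no other member but Hsp90aa1, the groups shared no library set, and the difference was not called. With saline 22.5 °C replicates 20 and 22, left out for Mb, at 2020 and 1977, the ranges overlapped. The log2 fold change of Ptges3 was 1.00 ± 0.27 (SE) with heat, 0.83 ± 0.26 with AMPH against saline at 22.5 °C and 0.63 ± 0.16 between the AMPH groups. The size of the rise with heat depended on the scaling between rats. As a share of all counts, the median of Ptges3 was 0.0101% in the heated rats, 0.00975% in the saline rats at 22.5 °C and 0.0103% in those at 16 °C.

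Cdc37 had means of 1129 ± 102, 1260 ± 81.8, 1839 ± 539, 1494 ± 421 and 1217 ± 141 normalized counts in the same order. It was called with heat alone against the 22.5 °C saline rats, at a log2 fold change of 0.63 ± 0.18, and that direction depended on the scaling, since with library totals and no scaling factors it was -0.19. Every pair of neighbours in the order of group means lay within the larger SD of the log2 values for both Cdc37 and Ptges3.

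Bag3 (ENSRNOG00000020298) encodes a co-chaperone that couples Hsp70 and small heat-shock proteins to selective autophagy. It was low in the unheated rats, at 142, 50.8, 116 and 105 normalized counts in the saline rats at 22.5 °C and at 110, 113, 75.8, 73.4 and 126 in those at 16 °C. The heated rats ran from 351 to 7138 with a median of 1502, the AMPH rats at 22.5 °C from 97.3 to 5210 with a median of 945, and the AMPH rats at 16 °C from 66.8 to 160 with a median of 89.1. No heated rat overlapped with the saline controls or the AMPH rats at 16 °C, and neither did 20 of 22 AMPH rats at 22.5 °C. The log2 fold change was 4.45 ± 0.80 (SE) with heat, 3.48 ± 0.74 with AMPH against saline at 22.5 °C and 3.64 ± 0.44 between the AMPH groups, or 12.5-fold, with an adjusted p of 1.845e-08 by edgeR's quasi-likelihood test with Benjamini-Hochberg adjustment. The highest heated rats for Bag3 were replicates 9, 7 and 11, with 7138, 6240 and 5164, and replicate 9 was below the group median for Hsp90aa1, with 108100.

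Hspb1 (ENSRNOG00000023546), the small heat-shock protein Hsp27 of the rat, was near the limit of detection in the saline rats and reached far higher levels in most heated ones. The 4 saline rats at 22.5 °C had raw counts of 2, 0, 2 and 49, and those at 16 °C had 16, 3, 1, 2 and 1. In normalized counts the heated rats ran from 12.4 to 2943 with a median of 591, the AMPH rats at 22.5 °C from 0 to 1833 with a median of 309, and the AMPH rats at 16 °C from 4.11 to 122 with a median of 10.4. Of the heated rats 14 of 15 were above every saline rat, and 17 of 22 AMPH rats at 22.5 °C were above every AMPH rat at 16 °C. The AMPH rats at 16 °C lay above the saline rats at 16 °C in mean, 22.6 ± 32.1 against 4.77 ± 6.82 normalized counts, with overlapping ranges. The fitted log2 fold change was 6.80 ± 1.52 (SE) with heat and 5.83 ± 1.44 with AMPH against saline at 22.5 °C. Both rest on control counts near 0. Without saline replicate 21, the control with 49 raw counts, they were 9.92 and 8.94. Between the AMPH groups it was 4.33 ± 0.76.

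Hspb1 is abundant in heart muscle, and its level went with Mb in some rats but not in others. The highest rat of each saline control group was also the highest for Mb among those kept, with 310 raw Mb counts in replicate 21 at 22.5 °C and 131 in replicate 1 at 16 °C. In the other groups the kept rat with the most Mb was saline 39 °C replicate 4 (1133), AMPH 22.5 °C replicate 2 (977) and AMPH 16 °C replicate 3 (673). Their Hspb1 levels were 66.7, 289 and 10.4 normalized counts, against group medians of 591, 309 and 10.4. The rats left out for Mb had 35.1 and 60.0 normalized counts of Hspb1 in the saline 22.5 °C group and 177 and 808 in the AMPH 16 °C group. Among rats with fewer than 20 Mb counts, Hspb1 ran from 0 to 1.55 in 3 saline rats at 22.5 °C, from 0.962 to 3.00 in 4 at 16 °C and from 4.11 to 12.0 in 3 AMPH rats at 16 °C. In the same range of Mb it ran from 12.4 to 2442 in 9 heated rats (median 411) and from 0 to 1833 in 11 AMPH rats at 22.5 °C (median 182). The summed level of the cardiac muscle markers overlapped in all 5 groups, from 60.8 to 764 normalized counts in the saline rats at 22.5 °C, 251 to 824 in those at 16 °C, 138 to 2620 in the heated rats, 70.2 to 3242 in the AMPH rats at 22.5 °C and 332 to 3167 in those at 16 °C. The 14 cardiac markers tested had a median log2 fold change of 1.35 with heat and 2.13 with heat against saline at 16 °C. It was 0.94 with AMPH against saline at 22.5 °C and 2.59 with AMPH against saline at 16 °C. Between the AMPH groups it was -0.86, and over all genes these medians lay between -0.002 and 0.079. Of these markers 1 was called, lower with heat against saline at 16 °C. The part of these markers in the Hspb1 levels was not tested.

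In the comparison of the saline rats at 39 °C with those at 22.5 °C, all 10 genes were called higher, where 12.6% of all genes tested were. Their median log2 fold change was 3.05, against 0.02 over all genes. Against the 5 saline rats at 16 °C, 8 of the 10 were called higher beside 10.7% of all genes, and the values for Cdc37 (0.48 ± 0.16) and Ptges3 (0.53 ± 0.24) stayed under the size threshold. The heated rats were wholly above the saline rats at 22.5 °C for 6 genes (Hsp90aa1, Hsp90ab1, Ahsa1, Stip1, Fkbp4 and Bag3), where 1.76% of all genes showed such a gap. They were above the saline rats at 16 °C (1.35%) and the AMPH rats at 16 °C (0.314%) for the same genes without Ahsa1. Markers of blood cells moved in the same comparison. All 12 T-cell markers were lower, with summed levels of 2466 to 12940 normalized counts in the heated rats and 13050 to 19870 in the saline rats at 22.5 °C. All 12 platelet markers were higher, with summed levels of 55560 to 295400 against 19220 to 50780. Of the 13 reticulocyte identifiers tested, which stand for 12 markers, 5 were higher. The summed levels of all 13 were 656700 to 19630000 normalized counts against 1513000 to 2233000. Also higher were 3 of 9 monocyte markers and 1 of 9 neutrophil markers, and 1 of 8 B-cell markers was lower. Against the saline rats at 16 °C, 7 of 12 T-cell, 3 of 9 neutrophil and 1 of 14 cardiac muscle markers were lower. Higher in that comparison were 6 of 12 platelet, 2 of 9 monocyte and 1 of 8 B-cell markers and 4 of 13 reticulocyte identifiers. No blood cell marker measured was at 0 in a whole group, and their part in the result was not tested. The saline rats at 39 °C and at 22.5 °C shared no library set, so a fit with the library set as a term linked them through the other groups. In that fit 7 of the 10 genes were called higher, beside 270 of 14000 genes. Hsp90aa1 was at a log2 fold change of 5.49, while Chordc1 (1.41), Cdc37 (0.48) and Ptges3 (0.65) were not called.

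In AMPH rats against saline rats at 22.5 °C, 9 of the 10 genes were called higher, all but Cdc37 (0.38 ± 0.17), where 6.41% of all genes were called higher. The same 9 were called without AMPH replicates 16 and 17, where 1395 of 13920 genes were called higher. Of the T-cell markers 8 of 12 were called lower, with summed levels of 2658 to 19810 normalized counts in the AMPH rats, and of the platelet markers 4 of 12 were higher, with sums of 20860 to 184300. Of the neutrophil and the monocyte markers 2 of 9 each were higher, and 1 of 8 B-cell markers was lower. Their part in the result was not tested. The count depended on single rats among the 4 controls. Without saline replicate 17 only 5 of the 10 genes were called, where 121 of 14193 genes were called higher. In the 2 library sets that held both groups, with 7 AMPH and 4 saline rats and the set as a term, no gene of any kind was called by edgeR's quasi-likelihood test, although 2341 of 12794 had an unadjusted p under 0.05, and the log2 fold changes of the 9 genes were between 0.72 for Ptges3 and 6.56 for Hspb1, each with an adjusted p of 0.266. The library set with 6 of those 7 AMPH rats included replicates 16 and 17, at 5040 and 2408 normalized counts of Hsp90aa1, beside 3 saline rats at 2196 to 2519.

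The comparison of the 22 AMPH rats at 22.5 °C with the 13 at 16 °C holds the drug fixed. Here 9 of the 10 genes were called higher, where 6.61% of all genes were, and Cdc37 missed the size threshold at 0.30 ± 0.11 (SE). The same number was called in the 5 library sets that held both groups, with 10 and 9 rats, beside 640 of 12091 genes called higher. In each of those 5 sets, every AMPH rat at 22.5 °C was above every AMPH rat at 16 °C for 7 genes (Hsp90aa1, Hsp90ab1, Ahsa1, Stip1, Chordc1, Fkbp4 and Bag3), an order that 1.62% of all genes showed in all 5 sets. It held in 4 sets for Hspb1 and Ptges3, and in 2 for Cdc37. In 1 set the order of Ptges3 was the opposite. In this comparison 2 of 8 B-cell markers and 1 of 12 platelet markers were called higher and 1 of 13 reticulocyte identifiers lower. No T-cell, monocyte, neutrophil or cardiac muscle marker was called. The part of these markers in the result was not tested.

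With AMPH against saline at 16 °C, none of the 10 genes was called by edgeR's quasi-likelihood test, and no gene of the 14000 was (0.0%), although 1026 had an unadjusted p under 0.05 and DESeq2 called 69, none of them a member. The log2 fold changes of the 10 genes were between -0.36 and 2.21, the latter for Hspb1 with an SE of 1.29. For Hsp90aa1 it was 0.00 with an SE of 0.55, so that a change of 1 log2 unit lay within 2 SE of it. In saline rats at 16 °C against 22.5 °C the values were between -0.71 and 0.75 and again no gene of any kind was called, with 1463 at an unadjusted p under 0.05 and 110 called by DESeq2, none of them a member. The library set of the saline rats at 16 °C held 1 of the 13 AMPH rats at 16 °C and no saline rat at 22.5 °C. Group and library set were thus nearly inseparable in the first comparison and could not be told apart in the second.

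The difference between the AMPH effects at 22.5 °C and at 16 °C was tested as an interaction, and 3 of the 10 genes were called, among 0.143% of all genes. The difference in log2 fold change was 5.24 ± 0.93 (SE) for Hsp90aa1, 2.81 ± 0.58 for Stip1 and 2.28 ± 0.53 for Fkbp4. Hsp90ab1 (2.58 ± 0.63) and Bag3 (3.58 ± 0.87) each had an adjusted p of 0.05314 by edgeR's quasi-likelihood test with Benjamini-Hochberg adjustment. The count ranged from 1 to 5 when single control rats were left out. It was 0 with the library set as a term, a fit in which no gene of the 14000 was called for the interaction.

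**Figure D4:**
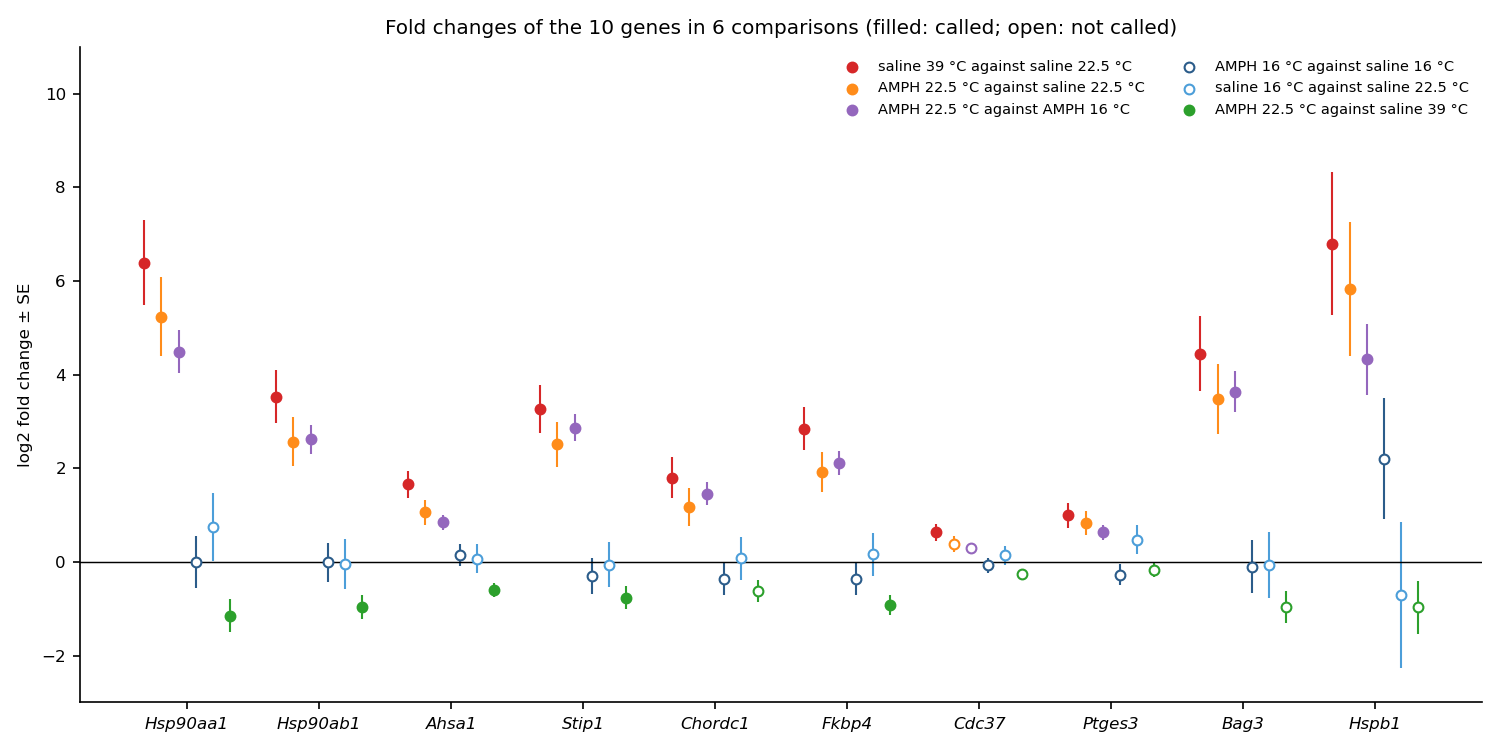
Log2 fold change with its SE (y axis) of each of the 10 genes (x axis) in 6 comparisons, with filled points for called and open points for uncalled values. The 3 comparisons of a hyperthermic with a normothermic group lie above 0 for every gene, with Hspb1 at 6.80 (9.92 without 1 control rat) and Hsp90aa1 at 6.39 with heat, while those among the normothermic groups lie on both sides of 0 and AMPH at 22.5 °C against heat lies below 0 for every gene.

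Set against the heated saline rats, the AMPH rats at 22.5 °C had lower values of all 10 genes, and 5 were called lower beside 3.39% of all genes. The log2 fold change was -1.15 ± 0.35 (SE) for Hsp90aa1, -0.96 ± 0.26 for Hsp90ab1, -0.92 ± 0.22 for Fkbp4, -0.76 ± 0.24 for Stip1 and -0.60 ± 0.15 for Ahsa1. Of the neutrophil markers 4 of 9 were higher with AMPH, with summed levels of 48860 to 1004000 normalized counts against 60280 to 329900 in the heated rats. Lower with AMPH were 3 of 13 reticulocyte identifiers and 2 of 12 platelet markers. The part of these markers was not tested. The groups overlapped for each of the 10 genes, with 3 of 15 heated rats above every AMPH rat for Hsp90aa1. Without AMPH replicates 16 and 17 the count was 3 (Hsp90aa1 -1.03, Hsp90ab1 -0.85 and Fkbp4 -0.83), beside 376 of 13920 genes called lower. In the 7 library sets that held both groups, with 10 AMPH and 13 heated rats, none of the 10 was called and Hsp90aa1 was at -0.93. The AMPH rats were all below the heated rats in 5 of those 7 sets for Hsp90ab1, Ahsa1, Chordc1 and Fkbp4 and in 4 for Hsp90aa1 and Stip1, and 21.7% of all genes had this order in at least 4 sets. They were all above the heated rats in 2 sets for Cdc37, Ptges3 and Hspb1 and in 1 for Bag3 and Hsp90aa1. None of the 10 was called with the library set as a term or with library totals and no scaling factors, where the median of all genes moved to 0.30 and Hsp90aa1 was at -0.75.

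The order of the group means on the log2 scale put the heated rats first and the AMPH rats at 22.5 °C second for all 10 genes, and these neighbours differed by more than the larger SD for Fkbp4 alone (0.98 against 0.86). The step from the AMPH rats at 22.5 °C to the next group exceeded the larger SD for 8 genes, all but Cdc37 and Ptges3. Below that step the order varied from gene to gene, and the neighbours differed by more than the spread only for Hsp90aa1 between AMPH at 16 °C and saline at 22.5 °C (0.69 against 0.55) and for Hspb1 between AMPH and saline at 16 °C (1.94 against 1.30). With library totals and TMM factors in place of DESeq2's size factors, the same 2 groups led for all 10 genes.

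Within the hyperthermic groups the genes rose and fell together from rat to rat. Over the 45 pairs of genes the median r of log2 levels was 0.79 in the 15 heated rats (Spearman's rho 0.72), 0.80 in the 22 AMPH rats at 22.5 °C (rho 0.78; r 0.73 without replicates 16 and 17) and 0.42 in the 13 AMPH rats at 16 °C (rho 0.41). Leaving out the 2 rats farthest from the median of the first gene of a pair, the median r was 0.64, 0.73 and 0.32. These are descriptions with no test, over rats that share library sets. Hsp90aa1 and Hsp90ab1 had r = 0.95 in the heated rats and 0.93 in the AMPH rats at 22.5 °C, Bag3 and Hspb1 had 0.89 and 0.90, and Hsp90aa1 and Cdc37 had 0.49 and 0.55. AMPH 22.5 °C replicate 9 was the highest of its group for 8 of the 10 genes, the others being Cdc37 (replicate 21) and Hspb1 (replicate 22).

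**Figure D5:**
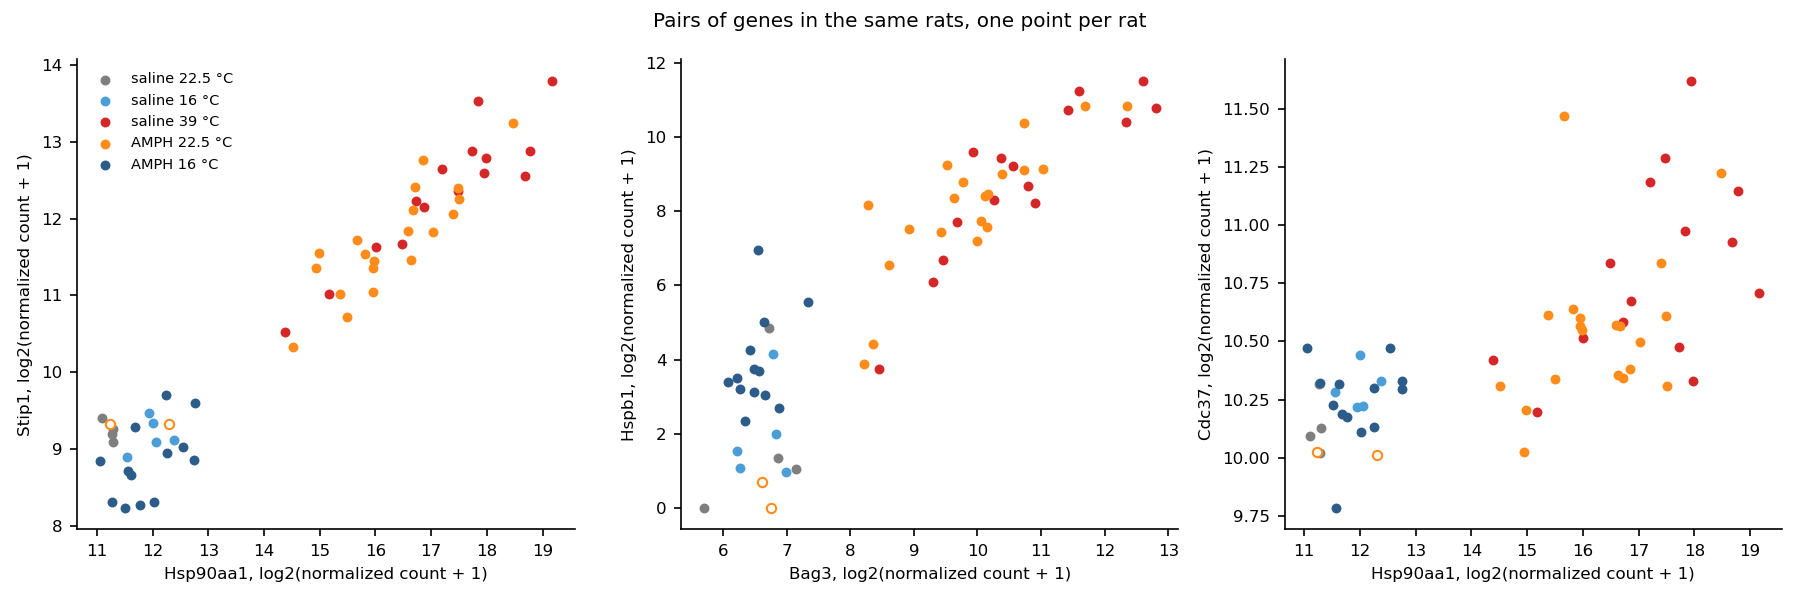
Levels of 3 pairs of genes in the same rats, as log2(normalized count + 1) on both axes, 1 point per rat coloured by group, with AMPH 22.5 °C replicates 16 and 17 as open circles. Stip1 follows Hsp90aa1 and Hspb1 follows Bag3 through the hyperthermic groups, with r of 0.92 and 0.89 in the heated rats, while Cdc37 follows Hsp90aa1 loosely (0.49).

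Among genes outside the family, that with the highest correlation over the 59 rats was Hsph1 for Hsp90aa1 and Stip1, Hspa8 for Hsp90ab1, Cacybp for Chordc1 and Fkbp4, Dnajb1 for Bag3, Hspa1b for Hspb1, Uspl1 for Ahsa1, Ascc2 for Cdc37 and Tmem33 for Ptges3. The pooled values span separate groups, so those within groups are given. Hsph1 and Hsp90aa1 had r = 0.94 in the heated rats and 0.95 in the AMPH rats at 22.5 °C, and Hspa8 and Hsp90aa1 0.97 and 0.92. Next for Hsp90aa1 came Hspa1b, whose 2 identifiers held identical values, and Dnaja1. For Hsp90ab1 they were Hspd1, Hsph1, Zfand2a and Hspe1, with 0.99 and 0.96 for the mitochondrial chaperonin gene Hspd1. For Hspb1 they included the other Hspa1b identifier, Dnajb1 and Hmox1.

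Other genes of the Hsp90 system moved less as a group. Of 31 further Hsp90 and co-chaperone genes on the list, 30 could be tested. With heat against 22.5 °C saline, 10 were called higher and 3 lower, where 23.8% of all genes were called in either direction, and their median log2 fold change was 0.03. The largest were Cacybp, a Siah1- and Hsp90-binding protein, at 2.89 ± 0.53 (SE), St13, the Hip co-chaperone of Hsp70, at 1.95 ± 0.37, Ahsa2 at 1.88 ± 0.44, and Fnip2, which slows the Hsp90 ATPase, at 1.85 ± 0.44. Rpap3, of the R2TP assembly complex, fell by 0.92 on the log2 scale. In AMPH against saline rats at 22.5 °C 4 were called higher and 1 lower, beside 12.0% of all genes, with Cacybp at 2.13 ± 0.50, Ahsa2 at 1.44 ± 0.42 and Hsp90b1, the Hsp90 of the endoplasmic reticulum, at 1.42 ± 0.31. Between the AMPH groups 6 were called higher and 1 lower, beside 10.3% of all genes, with Cacybp at 2.36 ± 0.30 and the cyclophilin gene Ppid at 0.87 ± 0.14. The 1 lower was Fkbp5, an immunophilin gene known as a glucocorticoid target, at -0.59 ± 0.17, opposite in sign to its relative Fkbp4. Against the heated rats, where 5.49% of all genes were called, none was higher with AMPH at 22.5 °C and Cacybp (-0.77 ± 0.26) and Fnip2 (-0.81 ± 0.23) were lower. At 16 °C none was called.

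Of the 5 other BAG genes, only Bag6 was called with heat, at 1.09 ± 0.31 against saline at 22.5 °C and 0.83 ± 0.27 against saline at 16 °C, and none was called with AMPH at 22.5 °C or between the AMPH groups. Of 10 other small heat-shock protein genes 5 could be tested, and none was called in any comparison. The same held for the 4 tested genes of heat shock factors and their regulators (of 6 on the list), whose median log2 fold change was -0.09 with heat and -0.08 between the AMPH groups.

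Of 32 genes on a list of Hsp90 clients, 30 were tested. They had 31 identifiers, and calls are counted over these. The list holds Pdk1, a pyruvate dehydrogenase kinase gene, beside Pdpk1, which encodes the client kinase known as PDK1. With heat against saline at 22.5 °C, 7 were called higher and 4 lower, where 23.8% of all genes were called in either direction. Among the higher were Stat3 at 1.71 ± 0.38 (SE), the kinase genes Src at 1.62 ± 0.44 and Braf at 1.56 ± 0.39, and Hif1a at 1.41 ± 0.44. Among the lower were the mineralocorticoid receptor gene Nr3c2 at -1.55 ± 0.57 and the T-cell kinase gene Lck at -1.35 ± 0.32. Lck is itself among the 12 T-cell markers, all of which were lower. With AMPH against saline at 22.5 °C 5 were higher and 2 lower, beside 12.0% of all genes. Between the AMPH groups only Ahr (0.73 ± 0.25) and Pdk1 (0.63 ± 0.17) were higher and Eif2ak2 (-0.63 ± 0.22) lower, beside 10.3% of all genes. The genes on the list had a median of 0.05 there, where the 10 chaperone genes had 2.37.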

How the data were processed

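Whole-blood RNA of 64 rats was depleted of globin transcripts and sequenced by the authors in paired-end reads. Per the labels and the methods of the study, reads were clipped, aligned with Bowtie 0.12.9 to the rat Ensembl transcriptome (rn5) and quantified with RSEM 1.2.0 after base calling with CASAVA 1.8.2. The authors deposited expected counts per gene, not normalized and not rounded. They were rounded to whole numbers here.

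Groups came from the labels. The files held 6 different gene lists, and genes listed in all were used, with at least 10 counts in at least 4 rats. Tests used edgeR 4.0.16 (R 4.3.3), and DESeq2 1.42.0 gave normalized counts and an alternative test. The biological coefficient of variation was 0.489 as a common value over the genes tested. For genes with many counts the spread between rats, more than counting error, therefore set the precision. This does not extend to Hspb1 in the saline control rats, where it was near the limit of detection. No pair of rats was a repeated library, the lowest chi-square per gene being 42.98. Scripts were tested on simulated data. Named genes of other lists are up to 5 called ones per list and comparison with the largest change. Cell markers served as checks. The members, gene lists and tests were chosen with earlier results of these data known. Dropping AMPH replicates 16 and 17 and the fit with no scaling factors were added after seeing the data. Alternatives covered the normalization, filter, Mb criterion, library set, replicate block and single control rats. Figures used matplotlib 3.10.9.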

Additional observations from a re-analysis of the deposited data

Results flagged for a closer look

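For 4 of the 20 pairs of gene and saline control group examined, 1 rat lay far from the others by Dixon's criterion. Chance gives about 1 in 20 for normally distributed values. The pairs share the same rats of the saline 22.5 °C and 16 °C groups, and the values were not on the log scale. Hsp90aa1 was lowest, at 2196 normalized counts, in saline 22.5 °C replicate 17, the other 3 rats having 2469 to 2519. Hsp90ab1 was highest, at 8776, in saline 16 °C replicate 2. Hspb1 was highest, at 28.1, in saline 22.5 °C replicate 21 and, at 16.9, in saline 16 °C replicate 1, the kept rats with the most Mb in their groups (310 and 131 raw counts).

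The AMPH effect was called as different between the 2 environments for 3 of the 10 genes, by an interaction test that called 0.143% of all genes. The count was 0 with the library set as a term and 1 without saline 22.5 °C replicate 17, 18 or 21. The log2 fold change against saline was larger at 22.5 °C than at 16 °C by 5.24 for Hsp90aa1, 2.81 for Stip1 and 2.28 for Fkbp4. Between the AMPH groups alone, without the saline rats, 20 of 22 rats at 22.5 °C were above every rat at 16 °C for each of these genes.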

How the results depend on the processing

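The counts of called genes with heat (7 to 10 of the 10 over the alternatives), with heat against the saline rats at 16 °C (7 to 9) and between the AMPH groups (8 or 9) stayed within 1.5 times the reported 10, 8 and 9, and 0 were called at 16 °C or between the normothermic saline groups under any setting run. Of the alternatives for single called genes, 513 kept their direction and their call, 84 kept the direction and lost the call, and 1 reversed. That was Cdc37 with heat, at -0.19 with no scaling factors, where the median of all genes moved to -0.667.

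With AMPH against saline at 22.5 °C (9 called), 0 were called in shared library sets and 0 with a replicate block, and leaving out single rats gave 5 to 9, with 5 without saline replicate 17. Over all genes, the fit without that rat called 150, against 1676 in the reported fit. Against the heated rats (5 called), the count was 0 with no scaling factors, 0 with the library set as a term, 0 in shared library sets, 0 with a replicate block, 2 with only these groups in the fit, and 3 without AMPH replicates 16 and 17. For the interaction (3 called), it was 5 with DESeq2, 5 with all 64 rats, 5 with rats above 500 Mb counts left out, 5 without AMPH replicates 16 and 17, 1 with no scaling factors and 0 with the library set as a term, and leaving out single rats gave 1 to 5, with 1 without each of saline 22.5 °C replicates 17, 18 and 21 and 5 without replicate 19 or without AMPH replicate 17. The causes were not tested.

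Replicate numbers did not pair the rats, since the lowest correlation between rats of the same number was 0.0207 for AMPH against saline at 22.5 °C and negative in the other 4 comparisons with shared numbers. The replicate block, fitted on rats with shared numbers alone, gave 9 called genes between the AMPH groups, 7 for heat against saline at 16 °C and 0 for AMPH against saline at 16 °C. At most 3 pairs of a comparison correlated best with their own number. No block could be fitted where groups share no number (heat and saline at 22.5 °C, and the normothermic saline groups).

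Over all genes the calls ranged widely. With heat they were 3329 as reported, 400 with the library set as a term and 5797 with no scaling factors, of which 408 were higher and 5389 lower. They were 0 to 3174 beside 1676 for AMPH against saline at 22.5 °C, 948 to 2897 beside 2424 for heat against saline at 16 °C, 16 to 1039 beside 768 for AMPH against heat, and 0 to 297 beside 20 for the interaction. With no scaling factors AMPH against heat had 936 higher and 54 lower, against 294 and 474. Between the AMPH groups they were 987 to 1800 beside 1448, and where 0 were reported they reached 116 for AMPH at 16 °C and 366 for the saline rats at 16 °C against 22.5 °C. The main limits are 4 and 5 control rats, the uneven library sets and the few Hspb1 counts in controls.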
